A study of Mus musculus with 446 samples.

Results

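The 35 genes described here encode the enzymes, carriers and regulator of fatty acid oxidation in mitochondria and peroxisomes. They were chosen by symbol, with earlier results of these data known, and all 35 are among the 47643 genes of the liver and muscle data. Of the 2728 genes read from the adipose data, 6 belong to the set. A long-chain fatty acid is activated to its coenzyme A ester, handed to carnitine at the outer mitochondrial membrane, carried across the inner membrane and returned to coenzyme A. Each turn of the beta-oxidation spiral then removes a short fragment by dehydrogenation, hydration, a further dehydrogenation and thiolysis, and the electrons reach the respiratory chain in part through the electron transfer flavoprotein. Peroxisomes shorten very long, branched and dicarboxylic acids first, and the nuclear receptor encoded by Ppara is a known activator of many of these genes in liver.

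The animals were male mice of the Diversity Outbred stock, which is kept so that no animal shares its genome with another. They were housed at 6 weeks of age, and for 14 weeks they received a control diet with 10% of calories from fat or a high-fat diet with 60%, with no other treatment. Each mouse gave samples of liver, muscle and abdominal adipose tissue, and total RNA was sequenced on a stranded kit, so each animal is a replicate of its diet and gave up to 3 libraries. The groups held 74 control and 75 high-fat libraries of liver, 74 and 75 of muscle, and 73 and 75 of adipose tissue, 446 libraries in all. The label "muscle" names no muscle, and the libraries carried skeletal myofibre markers, with a median summed level of 110911 TPM in control mice.

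The deposited values are TPM, transcript abundances corrected for length and library size. They hold no read depth, so the depth is unknown and no counting interval could be given. Libraries differed in the share of TPM on protein-coding genes (0.41% to 74.9% in liver, 2.54% to 76.3% in muscle), and all values below are scaled TPM, rescaled within each tissue to a common level over nuclear protein-coding genes. Libraries more than 3 times under the median scale of their tissue (14 control and 12 high-fat in liver, 2 and 9 in muscle, 11 and 7 in adipose tissue) are called low-scale libraries. The liver library of mouse 80 had a hepatocyte marker sum of 207 TPM and a myofibre sum of 68621, and its muscle library had 71890 and 420, opposite to the labels. Both were left out, leaving 74 mice per diet in liver and in muscle. A further 8 mice (3 control, 5 high-fat) had a liver whose gene pattern matched another mouse's muscle better than their own. For most of these mice the best-matching muscle came from the other diet, and for the rest from the same diet. A swap of libraries between the diets was not tested, and these mice were kept in the main tests. The 150 genes used for this matching were picked for their correlation between same-numbered livers and muscles.

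Hadha and Hadhb, the subunits of the mitochondrial trifunctional protein, lie head to head, and the 272 bases between their transcription starts are shown. Their levels correlated at 0.60 and 0.83 in control and high-fat livers and at 0.86 and 0.93 in muscles. By the lower of the 2 diets, other pairs of the set ranked higher in each tissue (described with the covariation of the genes). A part of the shared stretch in this was not tested. The stretch lies at chr5:30154981-30155252 on the plus strand of GRCm38.p6, from the RefSeq promoter table, with CpG dinucleotides in capitals.
Hadha-Hadhb: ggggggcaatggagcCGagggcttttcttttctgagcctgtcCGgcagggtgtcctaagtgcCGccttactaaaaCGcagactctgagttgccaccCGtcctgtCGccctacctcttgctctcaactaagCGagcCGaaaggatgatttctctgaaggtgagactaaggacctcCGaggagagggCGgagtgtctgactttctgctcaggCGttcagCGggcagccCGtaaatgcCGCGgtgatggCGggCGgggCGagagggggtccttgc
The stretch had 60.3% G and C and 18 CpG. Promoters of the set, taken as the 250 bases before and 50 after each start, had a median of 61.3% and 17 CpG over 31 promoters of 29 genes. Over all 32851 promoters in the table the medians were 52.7% and 7. Acaa2, Hsd17b4, Abcd2, Decr1, Crat and Cpt1b were not in the table.

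The binding element of the Ppara receptor with its partner is a direct repeat spaced by a single base, searched here on both strands as 2 copies of AGGTCA in the same direction with any base between them and up to 2 mismatches in the 12 fixed letters. It was found in 3 of the 31 promoters (9.68%) and in 3.86% of all promoters. The matches are shown in capitals with their flanks, 5′ to 3′ on the strand of the gene.
Echs1: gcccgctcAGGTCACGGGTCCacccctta
Etfa: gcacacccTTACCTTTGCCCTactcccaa
Slc25a20: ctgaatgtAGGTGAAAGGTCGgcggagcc
The Echs1 match lies at chr7:140116484-140116512 (minus strand, -83 to -71 from the start), that of Etfa at chr9:55512300-55512328 (minus strand, -77 to -65, with the motif on the opposite strand), and that of Slc25a20 at chr9:108662134-108662162 (plus strand, bases 6 to 18 after the start), all in GRCm38.p6. Of these genes Slc25a20 rose on the high-fat diet in both tissues, and Echs1 and Etfa did not pass the test in either. The extended half-site TCAAGGTCA, searched with no mismatch, was in 0 of the 31 promoters and in 0.423% of all.

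In liver, 25 of the 35 genes were higher on the high-fat diet and 1, Abcd2, was lower, by limma with Benjamini-Hochberg adjustment over all 12297 genes tested at an adjusted p under 0.05. Over all genes tested 9.84% passed, 4.69% higher and 5.15% lower. The genes that rose did so by 0.14 to 0.47 as differences of log2(scaled TPM + 1), a measure in which the added 1 makes changes of low genes look smaller. Over all 35 genes the median difference was 0.24, against -0.00 over all genes, and 32 of the 35 differences were positive. The rise covered every step of the pathway: 5 of 7 genes of uptake, activation and carnitine transport, 5 of 6 acyl-CoA dehydrogenases, 4 of 5 genes of the later steps of the spiral, 4 of 4 auxiliary enzymes for unsaturated acids, 2 of 3 electron transfer genes, 4 of 9 peroxisomal genes and Ppara itself. For every gene the diet groups overlapped.

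In muscle, 14 of the 35 genes were higher on the high-fat diet and 0 were lower, where 1.45% of the 13458 genes tested passed, 0.899% higher and 0.55% lower. These 14 rose by 0.16 to 0.53, and the median over all 35 genes was 0.19 against -0.01 over all genes. By role, 5 of 7 genes of uptake and carnitine transport, 2 of 6 dehydrogenases, 1 of 5 genes of the later steps, 3 of 4 auxiliary enzymes and 3 of 9 peroxisomal genes rose, and 0 of 3 electron transfer genes passed. Here too the diet groups overlapped for every gene. Because tissues were sequenced in bulk, a change in the number of cells of a type cannot be told apart from a change in RNA per cell.

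**Figure D1:**
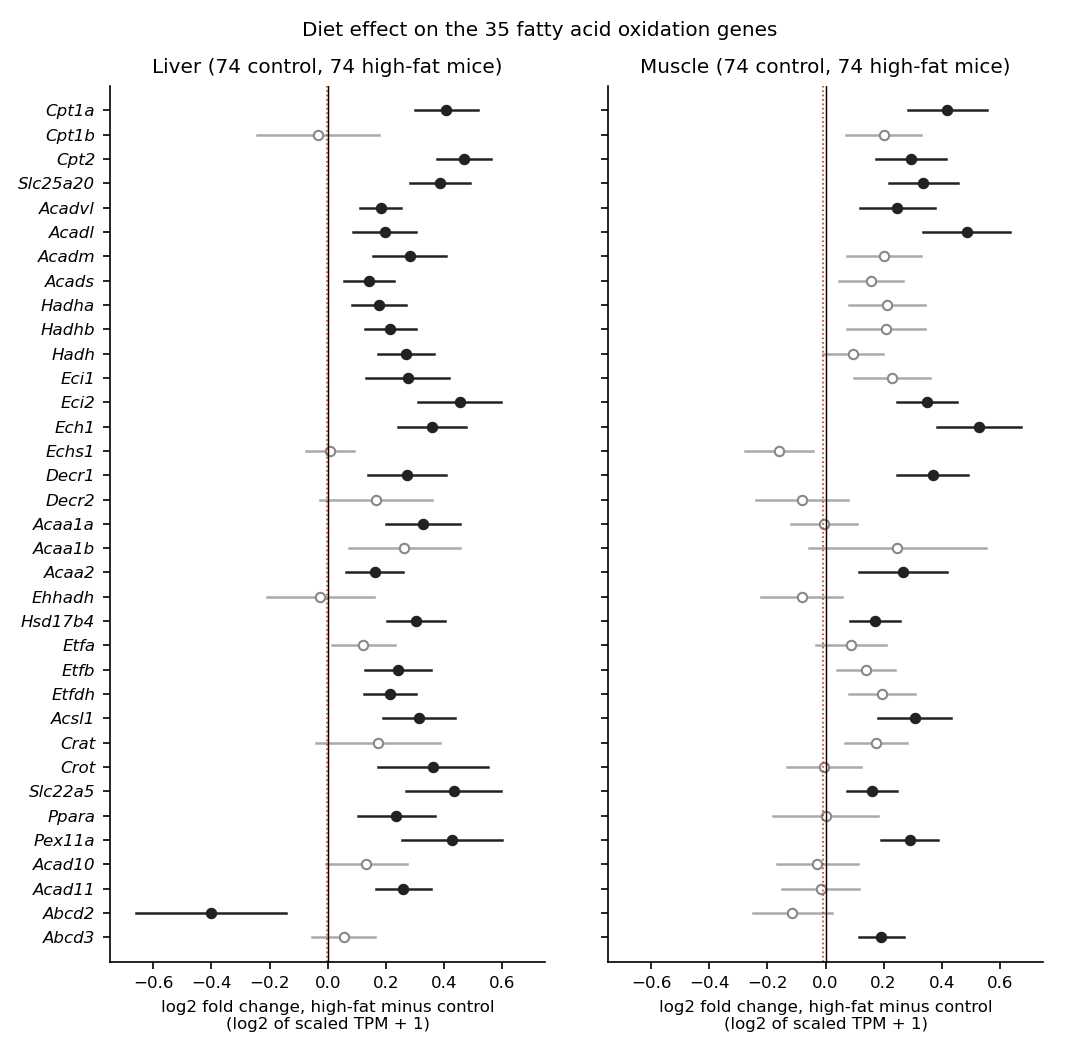
Difference between high-fat and control mice (log2 of scaled TPM + 1, x axis) for each of the 35 genes in liver and muscle, with 95% intervals, filled points for an adjusted p under 0.05 and a dotted line at the median of all genes tested. Most points lie to the right of 0 in both tissues, 32 of 35 in liver and 27 of 35 in muscle, and Abcd2 in liver lies farthest to the left.

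The carnitine steps held the gene of smallest p in liver. Cpt2, which returns the acyl group from carnitine to coenzyme A inside the mitochondrion, ran from 17.02 to 58.6 scaled TPM in control livers (median 34.4) and from 24.5 to 74.6 on the high-fat diet (median 47.2). All but 3 of the 74 high-fat livers were above the control median (71 of 74), and the rise was 0.47 ± 0.05 (SE; limma adjusted p = 5.07e-15). In muscle, which was scaled apart from liver, its levels were 18.2 to 57.3 (median 34.8) in control and 20.2 to 84.8 (median 38.9) in high-fat mice. The highest muscles were high-fat animals, and the rise was 0.29 ± 0.06 (adjusted p = 0.00133).

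Cpt1a encodes the liver form of the enzyme that makes acylcarnitine, the step inhibited by malonyl-CoA. Control livers had 39.7 to 121.5 scaled TPM (median 63.2) and high-fat livers 25.4 to 149.4 (median 86.8). The lowest liver was a high-fat animal, yet 67 of 74 were above the control median, and the rise was 0.41 ± 0.06 (adjusted p = 3.48e-09). In muscle the same gene was low, 2.53 to 13.8 in control (median 5.40) and 2.08 to 16.8 in high-fat mice (median 7.34). It rose by nearly the same amount there, 0.42 ± 0.07 (adjusted p = 1.19e-05), with 60 of 74 above the control median. The difference between the effects in the tissues was -0.01 ± 0.09 (adjusted p = 0.978).

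Cpt1b, the muscle form of the enzyme, was near the bottom of the range in liver, from 0 to 8.21 scaled TPM (median 1.07) in control and from 0 to 11.04 (median 1.02) in high-fat mice. In muscle, where it is the main form, it ran from 72.4 to 364 (median 167) in control and from 70.4 to 344 (median 188) on the high-fat diet. It did not pass the test in either tissue: the differences were -0.03 ± 0.11 in liver (adjusted p = 0.908) and 0.20 ± 0.07 in muscle (adjusted p = 0.0991), where 52 of 74 high-fat mice lay above the control median.

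Slc25a20, the carnitine-acylcarnitine carrier of the inner membrane, had 12.6 to 65.7 scaled TPM in control livers (median 38.04) and 18.8 to 78.5 in high-fat livers (median 50.97). High-fat livers were above the control median in 67 of 74 cases, a rise of 0.39 ± 0.05 (adjusted p = 2.74e-09), and muscle showed 0.34 ± 0.06 (adjusted p = 6.49e-05). Acsl1, a long-chain acyl-CoA synthetase, rose by 0.31 ± 0.06 in liver (adjusted p = 9.36e-05) and by 0.31 ± 0.06 in muscle (adjusted p = 0.00122). Slc22a5, the plasma membrane carnitine transporter, was low in both tissues, 0 to 10.2 (median 4.25) in control and 0 to 17.6 (median 5.79) in high-fat livers, and 3.89 to 10.6 (median 6.58) against 4.55 to 12.2 (median 7.59) in muscle. It rose in both, by 0.43 ± 0.08 in liver (adjusted p = 4.4e-05) and 0.16 ± 0.04 in muscle (adjusted p = 0.0368). Crat, the carnitine acetyltransferase of short acyl groups, did not pass in liver (0.17 ± 0.11, adjusted p = 0.371) or muscle (0.17 ± 0.05, adjusted p = 0.0757).

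Among the acyl-CoA dehydrogenases, which open each turn of the spiral, the chain-length forms for very long, long, medium and short acids all rose in liver: Acadvl by 0.18 ± 0.04, Acadl by 0.20 ± 0.06, Acadm by 0.28 ± 0.06 and Acads by 0.14 ± 0.04. Their adjusted p-values ran from 6.55e-05 for Acadvl to 0.0231 for Acads. In muscle Acadl stood out within the family. Control muscles had 33.9 to 211 scaled TPM (median 97.4) and high-fat muscles 47.96 to 338 (median 142.4). Of the high-fat animals 67 of 74 were above the control median, and the rise was 0.49 ± 0.08 (adjusted p = 2.82e-06). In liver the same gene ran from 13.3 to 79.3 (median 39.2) in control and from 24.1 to 81.99 (median 43.8) in high-fat mice, with 51 of 74 above the control median. Acadvl rose in muscle by 0.25 ± 0.07 (adjusted p = 0.0285), while Acadm (0.20 ± 0.07, adjusted p = 0.095) and Acads (0.16 ± 0.06, adjusted p = 0.154) did not pass.

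Acad11, a dehydrogenase family member of longer acids, was at 44.2 to 144.9 scaled TPM in control livers (median 90.1) and 67.7 to 185 in high-fat livers (median 108.1). It rose there by 0.26 ± 0.05 (adjusted p = 1.76e-05), with 59 of 74 high-fat livers above the control median. In muscle the groups lay over each other, 9.81 to 57.2 (median 30.7) and 13.03 to 58.96 (median 31.2), with a difference of -0.02 ± 0.07 (adjusted p = 0.959). Its relative Acad10 did not pass in liver (0.13 ± 0.07, adjusted p = 0.274) or muscle (-0.03 ± 0.07, adjusted p = 0.927).

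Hadha and Hadhb, which together carry out the later steps for long chains, rose in liver, and their muscle differences did not pass over 74 mice per diet. Hadha had 80.9 to 189 scaled TPM in control livers (median 133.01) and 43.5 to 257 in high-fat livers (median 153), a rise of 0.18 ± 0.05 (adjusted p = 0.00537; 57 of 74 above the control median). Hadhb had 59.1 to 159 (median 91.8) and 32.7 to 188 (median 109.04), a rise of 0.22 ± 0.05 (adjusted p = 0.000207; 65 of 74). For both subunits the lowest and the highest liver were high-fat animals. In muscle Hadha ran from 102.4 to 362 (median 210.5) and from 98.1 to 521 (median 245), a difference of 0.21 ± 0.07 (adjusted p = 0.0862). Hadhb there ran from 141.7 to 576 (median 303) and from 145.4 to 823 (median 342), also 0.21 ± 0.07 (adjusted p = 0.095). The highest muscle values of both genes were again in high-fat mice. Without the 8 unmatched mice both passed in muscle (Hadha 0.25, adjusted p = 0.0269; Hadhb 0.25, adjusted p = 0.0325), and without the low-scale libraries Hadhb did (0.25, adjusted p = 0.0393). Scaled to the coding sum both passed there as well (adjusted p = 0.00915 and 0.0136).

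Hadh, the dehydrogenase for shorter 3-hydroxyacyl groups, had 61.9 to 172 scaled TPM in control livers (median 97.1) and 75.7 to 226 in high-fat livers (median 116.3), a rise of 0.27 ± 0.05 (adjusted p = 1.41e-05). Its muscle values were 53.8 to 169 (median 100.8) and 50.999 to 205 (median 109.7), and the difference of 0.10 ± 0.05 did not pass (adjusted p = 0.467). Acaa2, the mitochondrial thiolase, rose by 0.16 ± 0.05 in liver (adjusted p = 0.0221) and by 0.27 ± 0.08 in muscle, just inside the threshold (adjusted p = 0.0498). Echs1, the hydratase for short chains, differed from the rest of the spiral: 0.01 ± 0.04 in liver (adjusted p = 0.947) and -0.16 ± 0.06 in muscle (adjusted p = 0.192), where 26 of 74 high-fat mice were above the control median.

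The auxiliary enzymes, which move or reduce double bonds of unsaturated acids so that the spiral can go on, held the largest rise of the set in muscle. Ech1, a dienoyl-CoA isomerase, ran from 86.8 to 299 scaled TPM in control muscles (median 191) and from 94.5 to 639.5 in high-fat muscles (median 265). Of the 74 high-fat muscles 64 were above the control median and 27 above the highest control muscle, and the rise was 0.53 ± 0.07 (adjusted p = 8.51e-08). In liver Ech1 ran from 83.6 to 273 (median 143.9) in control and from 102.5 to 308 (median 181) in high-fat mice, a rise of 0.36 ± 0.06 (adjusted p = 1.98e-06). The muscle effect was larger by 0.17 ± 0.10, a difference that did not pass its own test (adjusted p = 0.399).

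Eci2, an enoyl-CoA isomerase of peroxisomes and mitochondria, ran from 31.9 to 159 scaled TPM in control livers (median 74.7) and from 19.2 to 221 in high-fat livers (median 104.2). High-fat livers held both the lowest and the highest value, 69 of 74 were above the control median, and the rise was 0.45 ± 0.07 (adjusted p = 5.23e-07). In muscle its range was 36.4 to 101.8 (median 69.5) in control and 42.2 to 211 (median 90.7) in high-fat mice, a rise of 0.35 ± 0.05 (adjusted p = 9.64e-07; 63 of 74 above the control median). Its relative Eci1 rose in liver by 0.28 ± 0.07 (adjusted p = 0.00537) and in muscle fell just outside the threshold (0.23 ± 0.07, adjusted p = 0.0508). Decr1, the mitochondrial dienoyl-CoA reductase, rose in liver by 0.27 ± 0.07 (adjusted p = 0.00244). In muscle it ran from 31.4 to 100.2 (median 59.4) in control and from 31.2 to 185 (median 76.2) in high-fat mice, a rise of 0.37 ± 0.06 (adjusted p = 1.88e-05).

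Of the electron transfer genes, Etfb and Etfdh rose in liver, by 0.24 ± 0.06 (adjusted p = 0.00145) and 0.22 ± 0.05 (adjusted p = 0.000286). Etfa, the partner subunit of Etfb, differed by 0.12 ± 0.06 there (adjusted p = 0.163). In muscle the differences were 0.09 ± 0.06 for Etfa, 0.14 ± 0.05 for Etfb and 0.19 ± 0.06 for Etfdh, the dehydrogenase that hands the electrons to ubiquinone, with adjusted p-values of 0.593, 0.178 and 0.0611.

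**Figure D2:**
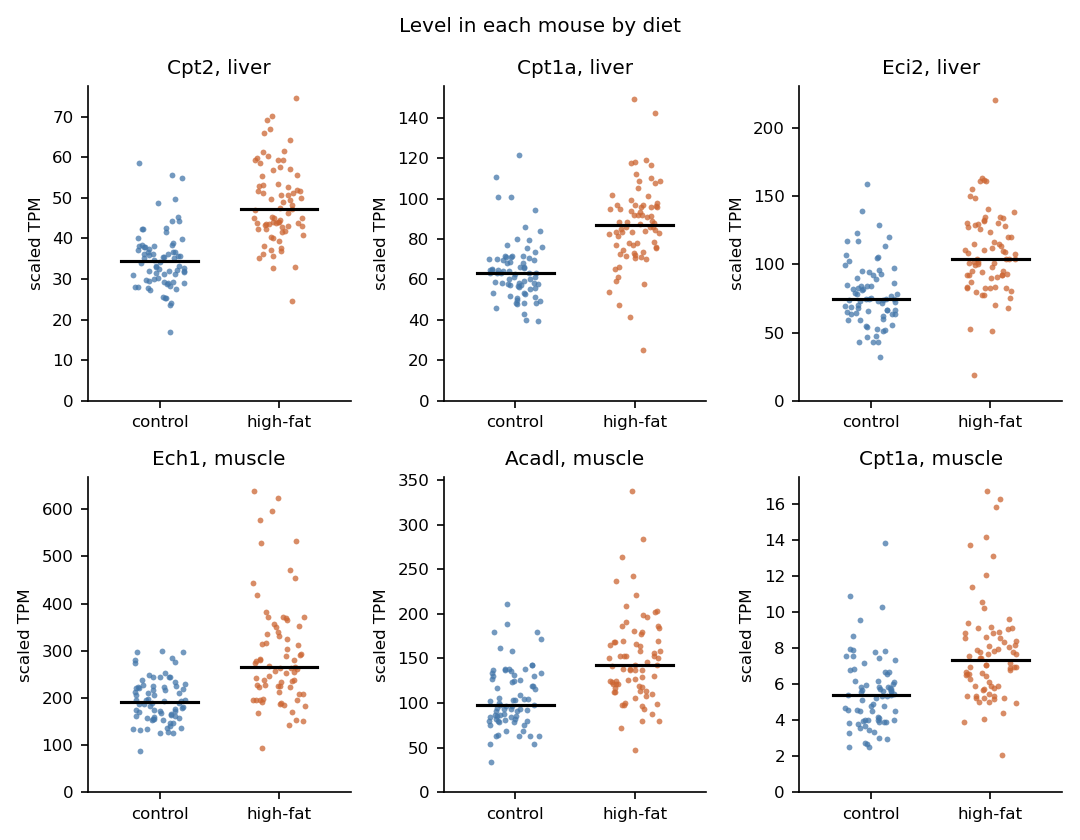
Scaled TPM of single mice by diet (points; the bar is the median) for Cpt2, Cpt1a and Eci2 in liver and for Ech1, Acadl and Cpt1a in muscle. In every panel the high-fat median lies above the control median and the clouds overlap; in Ech1 of muscle 27 high-fat mice lie above the highest control mouse.

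The peroxisomal genes were mixed. Hsd17b4, which encodes a multifunctional enzyme with hydratase and dehydrogenase activity, had 60.7 to 165 scaled TPM in control livers (median 105.2) and 45.2 to 189.5 in high-fat livers (median 134.4), a rise of 0.30 ± 0.05 (adjusted p = 2.38e-06; 65 of 74 above the control median). It also rose in muscle, by 0.17 ± 0.04 (adjusted p = 0.0195). Ehhadh, the other multifunctional enzyme and a classical target of the Ppara receptor, showed no such difference. Its liver values were 22.4 to 217 (median 60.0) in control and 26.5 to 216 (median 57.98) in high-fat mice, a difference of -0.03 ± 0.09 with a 95% interval of -0.21 to 0.16 (adjusted p = 0.923). In muscle it was low, 1.67 to 11.8 (median 2.79) and 1.11 to 10.99 (median 2.75), with a difference of -0.08 ± 0.07 (adjusted p = 0.7).

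Acaa1a and Acaa1b encode near-identical peroxisomal thiolases, and how reads shared between such copies were assigned is not given in the sources used here, so their split is uncertain. Acaa1a ran from 14.3 to 119.6 scaled TPM in control livers (median 45.996) and from 25.3 to 118.8 in high-fat livers (median 60.0). It rose by 0.33 ± 0.07 (adjusted p = 7.59e-05), with 63 of 74 high-fat livers above the control median. Acaa1b, the more abundant form in liver, ran from 84.1 to 604 (median 235) and from 89.2 to 918 (median 289). Its difference of 0.26 ± 0.10 did not pass (adjusted p = 0.0697; 45 of 74 above the control median), and without the low-scale libraries it was 0.35 ± 0.10 and passed (adjusted p = 0.00917). In muscle Acaa1a ran from 9.28 to 33.9 (median 16.3) and from 7.77 to 28.1 (median 16.5), a difference of -0.00 ± 0.06 (adjusted p = 0.989). Acaa1b there ran from 0 to 14.5 (median 1.04) and from 0 to 34.4 (median 1.66), a difference of 0.25 ± 0.16 (adjusted p = 0.544).

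Crot, the peroxisomal carnitine octanoyltransferase, ran from 41.4 to 328 scaled TPM in control livers (median 133.97) and from 44.7 to 368 in high-fat livers (median 179.6), a rise of 0.36 ± 0.10 (adjusted p = 0.00525). In muscle the groups lay over each other, 16.7 to 65.2 (median 27.5) and 13.02 to 77.1 (median 27.7), with a difference of -0.01 ± 0.06 (adjusted p = 0.985). Pex11a, a peroxisome proliferation factor, rose in liver by 0.43 ± 0.09 (adjusted p = 0.00015), with a highest value of 99.8 in a high-fat liver against 25.0 among the controls. In muscle it ran from 4.79 to 13.4 (median 9.26) and from 6.07 to 18.5 (median 11.4), a rise of 0.29 ± 0.05 (adjusted p = 2.32e-05). Decr2, the peroxisomal dienoyl-CoA reductase, did not pass in liver with all libraries (0.17 ± 0.10, adjusted p = 0.335) and passed without the low-scale libraries (0.24 ± 0.06, adjusted p = 0.00158). Its muscle difference was -0.08 ± 0.08 (adjusted p = 0.75).

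The ABC transporters of the peroxisomal membrane did not share a direction. Abcd2, which carries very long-chain acyl groups, was near the floor in liver, 0 to 12.2 scaled TPM (median 1.33) in control and 0 to 13.2 (median 0.686) in high-fat mice. It fell by 0.40 ± 0.13 (adjusted p = 0.0331), with 21 of 74 high-fat livers above the control median. The call did not hold with a pseudocount of 0.1 (-0.71, adjusted p = 0.0546), with no filter (adjusted p = 0.0763) or with mouse 80 kept (-0.36, adjusted p = 0.089). Its muscle difference was -0.11 ± 0.07 (adjusted p = 0.518). Abcd3 was 0.06 ± 0.06 in liver (adjusted p = 0.633) and rose in muscle by 0.19 ± 0.04 (adjusted p = 0.0011), with 61 of 74 high-fat muscles above the control median.

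Ppara, the receptor itself, ran from 16.9 to 92.9 scaled TPM in control livers (median 49.2) and from 24.4 to 101.5 in high-fat livers (median 57.98), a rise of 0.24 ± 0.07 (adjusted p = 0.0114; 55 of 74 above the control median). In muscle it ran from 1.71 to 25.3 (median 5.76) and from 1.80 to 19.3 (median 5.32). The difference there was 0.00 ± 0.09, with an interval of -0.18 to 0.18 (adjusted p = 0.998).

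The choice of libraries and scaling touched these counts. Without the low-scale libraries 27 genes were higher and 1 lower in liver (15.5% of all genes tested passed, 7.93% higher and 7.61% lower), and 15 were higher and 0 lower in muscle (1.13%, 0.775% and 0.354%). Keeping mouse 80 gave 22 higher genes in liver and 14 in muscle (399 and 78 over all genes tested). Leaving out the 8 unmatched mice gave 25 and 21 (5.63% and 0.885% of all genes tested were higher). The 7 genes gained in muscle without these mice were Cpt1b, Acadm, Hadha, Hadhb, Eci1, Etfdh and Crat, with adjusted p-values from 0.00921 for Etfdh to 0.0367 for Crat. Whether libraries placed in the wrong diet group had a part in this was not tested. Scaled to the coding sum, these 7 genes, Acads and Etfb were gained in muscle, where 2% of all genes were higher. On the values as deposited, without rescaling, 0 of the 35 passed in either tissue and the median SE was 0.24 in liver and 0.14 in muscle, against 0.06 and 0.06 after scaling. Apart from this setting, 20 of the 26 liver calls and 11 of the 14 muscle calls passed in every alternative tried. Those lost at least once were Acads, Acaa2, Ppara, Abcd2, Acadl and Hadha in liver and Acaa2, Acadvl and Slc22a5 in muscle. As deposited, the median over all genes shifted to -0.05 in liver and -0.15 in muscle; relative to it the 35 genes had a median of 0.19 in liver and 0.14 in muscle, and 31 and 28 of them lay above it.

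Other genes of the pathway, outside the 35, moved less uniformly in liver. Among 14 tested genes of fatty acid activation and transport, 3 rose and 3 fell, with Slc27a2 (0.26 ± 0.06), a fatty acid transporter, and Acsf2 (0.43 ± 0.10) up and Acsl5 (-0.54 ± 0.06), an acyl-CoA synthetase, and Dbi (-0.36 ± 0.06), an acyl-CoA binding protein, down. Of 15 other mitochondrial genes 2 rose and 2 fell: Acat1 (0.33 ± 0.06) and Hsd17b10 (0.22 ± 0.07) up, Echdc1 (-0.23 ± 0.06) and Acacb (-1.99 ± 0.14) down. Acacb makes the malonyl-CoA that inhibits the Cpt1 enzymes. Of 18 other peroxisomal genes 3 rose and 1 fell, with Lonp2 at 0.33 ± 0.05, Acot8 at 0.34 ± 0.07, Pecr at 0.18 ± 0.05 and Hacl1 at -0.34 ± 0.08. Peroxisome biogenesis factors gave 1 rise among 15 (Pex11g, 0.23 ± 0.06), and carnitine synthesis 2 rises (Aldh9a1 0.13 ± 0.04, Bbox1 0.18 ± 0.06) and 1 fall (Shmt1, -0.25 ± 0.05) among 5.

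Nuclear receptors and co-regulators in liver gave 2 rises and 2 falls among 14: Rxra (0.19 ± 0.04), the partner of the Ppara receptor, and Pparg (0.38 ± 0.11) were higher, and Ppard (-0.52 ± 0.11) and Ppargc1a (-0.39 ± 0.10), a coactivator of mitochondrial genes, were lower. Of 24 further known targets of the Ppara receptor 8 rose and 1 fell, with a median of 0.19, and Creb3l3 (0.39 ± 0.04), Aldh3a2 (0.85 ± 0.11) and Fitm2 (0.28 ± 0.06) were among the 4 of smallest p. Oxidative phosphorylation, the step after beta-oxidation, did not share the direction: 0 of 28 subunits rose, 3 fell (Sdhd -0.19 ± 0.04, Ndufb8 -0.18 ± 0.04, Atp5c1 -0.12 ± 0.03) and the median was -0.01. In the citric acid cycle and related genes, 1 of 16 rose (Dlst, 0.20 ± 0.03) and 1 fell (Cs, -0.24 ± 0.05).

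In muscle the same lists gave fewer calls outside the targets of the receptor. Of 18 such targets 8 rose and 0 fell, with a median of 0.38: Plin5 (0.92 ± 0.11), a lipid droplet protein, the thioesterases Acot1 (1.04 ± 0.13) and Acot2 (0.61 ± 0.10), and Slc25a34 (0.86 ± 0.11) led. Slc27a1 (0.36 ± 0.07) and Slc27a4 (0.21 ± 0.06), both fatty acid transporters, rose among 10 activation genes. Mlycd (0.41 ± 0.07), which removes malonyl-CoA, rose among 15 other mitochondrial genes, while Acadsb (-0.33 ± 0.05) and Ivd (-0.29 ± 0.05), dehydrogenases of branched-chain amino acid breakdown, fell. Catalase (Cat, 0.33 ± 0.07) was the 1 peroxisomal gene of 16 to rise. No gene passed among 15 biogenesis factors, 4 carnitine synthesis genes, 14 regulators, 28 oxidative phosphorylation subunits (median -0.03) or 16 citric acid cycle genes (median -0.02).

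Markers of cell types were compared in the same fits, and their part in the results above was not tested. In liver, 4 of 8 hepatocyte markers fell, among them Fgb (-0.30 ± 0.05), Alb (-0.20 ± 0.05) and Ttr (-0.19 ± 0.05), and 1 rose (Cyp2e1, 0.37 ± 0.07). Their summed level was 32432 to 83416 scaled TPM (median 48304) in control and 26967 to 67053 (median 44096) in high-fat livers. Macrophage markers gave 2 falls among 9 (Ctss -0.29 ± 0.09, Mpeg1 -0.33 ± 0.12), endothelial markers and erythrocyte genes 0 among 7 and 0 among 5, and Ptprc, the 1 lymphocyte marker tested, -0.26 ± 0.09 (adjusted p = 0.0527). Few genes of the adipocyte (3 tested, Pparg up and Lpl down), slow fibre (2 tested, Atp2a2 up), myofibre (2 tested, 0 called) and brown adipocyte (2 tested, Ppargc1a down) lists reached the minimum level in liver, and none of the fast fibre list did.

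In muscle 0 of 8 myofibre, 10 fast fibre, 8 slow fibre, 10 adipocyte, 7 macrophage, 7 endothelial, 6 hepatocyte, 3 brown adipocyte and 1 lymphocyte markers passed, and 1 of 5 erythrocyte genes fell (Hbb-bs, -0.34 ± 0.10). The slow fibre genes, markers of a fibre type rich in mitochondria, had a median difference of 0.67 with a wide spread between mice. Their summed level was 42.5 to 14045 scaled TPM (median 1084) in control and 34.5 to 12168 (median 1534) in high-fat muscles. With this sum as a covariate, a fit chosen after seeing the data, 11 of the 35 genes rose and 0 fell (1.14% of all genes passed, 0.721% higher and 0.424% lower), and the median was 0.16. Acadvl (0.20, adjusted p = 0.0856), Acaa2 (0.22, adjusted p = 0.142) and Slc22a5 (0.15, adjusted p = 0.0632) no longer passed.

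Of the 35 genes, 13 were higher on the high-fat diet in both liver and muscle, against 34 of the 10898 genes tested in both (0.312%). They were Cpt1a, Cpt2, Slc25a20, Acsl1 and Slc22a5 of the transport steps, Acadvl, Acadl and Acaa2 of the spiral, Eci2, Ech1 and Decr1 of the auxiliary steps, and Hsd17b4 and Pex11a of the peroxisome. A further 12 passed in liver and not in muscle (Acadm, Acads, Acad11, Hadha, Hadhb, Hadh, Eci1, Etfb, Etfdh, Acaa1a, Crot and Ppara), 1 in muscle and not in liver (Abcd3), Abcd2 fell in liver alone by the threshold, and 8 passed in neither. Of the 12, Acadm, Hadha, Hadhb, Eci1 and Etfdh passed in muscle too without the unmatched mice, and these 5, Acads and Etfb passed there with the coding-sum scaling. Passing in a single tissue does not show a difference between tissues, so the difference of the effects was tested itself.

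For 2 of the 35 genes the diet effect differed between liver and muscle by the interaction of tissue and diet in limma, both with the larger effect in liver, where 3.17% of the 10898 genes passed (1.37% higher in liver, 1.8% lower). Acaa1a rose more in liver than in muscle by 0.33 ± 0.09 (adjusted p = 0.0104), and Acad11 by 0.28 ± 0.08 (adjusted p = 0.036). Crot (0.37 ± 0.12, adjusted p = 0.0526), Slc22a5 (0.28 ± 0.09, adjusted p = 0.0847) and Hadh (0.17 ± 0.07, adjusted p = 0.194) had differences in the same direction that did not pass. Acadl was the other way, -0.29 ± 0.09 (adjusted p = 0.0648). With the mouse as a block, since each animal gave both tissues, Acadl passed as larger in muscle (adjusted p = 0.0287), beside the same 2 higher in liver. Without the low-scale libraries 2.75% of all genes were higher in liver, and Slc22a5 (0.33, adjusted p = 0.00223), Crot (0.46, adjusted p = 0.00836), Decr2 (0.33, adjusted p = 0.033) and Cpt2 (0.25, adjusted p = 0.0372) passed beside Acaa1a. Acad11 did not hold there (0.25, adjusted p = 0.0836). Without the unmatched mice Crot passed (0.39, adjusted p = 0.0346), as did Acadl (-0.35, adjusted p = 0.0116), and Acad11 did not (0.25, adjusted p = 0.0623). Over the alternatives the adjusted p of Acad11 ran from 0.00624 to 0.939, that of Acaa1a from 0.0035 to 0.939.

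The tissues themselves were compared on the control diet. With the libraries of both tissues scaled together, 27 genes were higher in liver, 6 in muscle and 2 did not pass, where 90% of the 12836 genes tested differed. For 9 genes the ranges of the 74 livers and 74 muscles did not overlap, against 15.7% of all genes: Cpt1a, Decr2, Acaa1b, Ehhadh, Hsd17b4, Crot and Abcd3 were higher in every liver, and Cpt1b and Crat in every muscle. TPM is per transcript length, so levels of different genes can be set side by side on this scale.

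**Figure D3:**
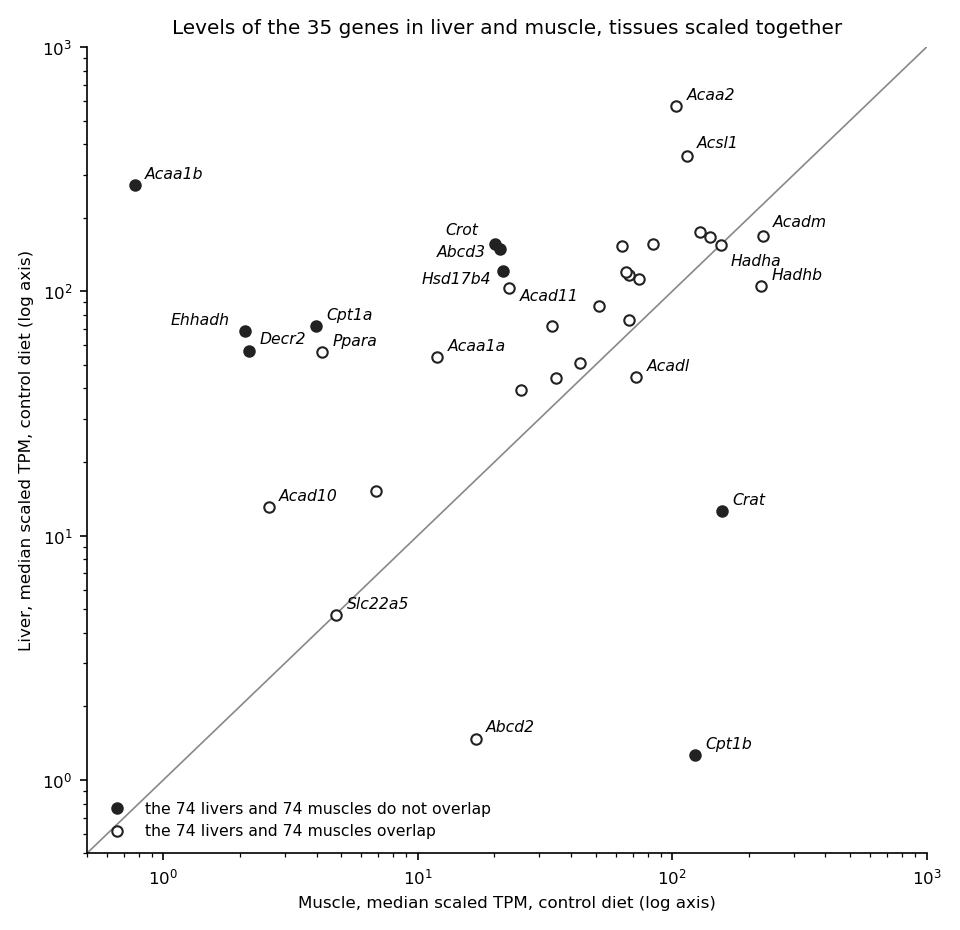
Median level of each gene in control liver (y axis) against control muscle (x axis), in jointly scaled TPM on log axes, with filled points where the 74 livers and 74 muscles do not overlap and a diagonal of equal levels. Acaa1b, Ehhadh, Decr2 and Cpt1a lie far on the liver side, Cpt1b and Crat far on the muscle side, and Hadha on the diagonal.

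The carnitine palmitoyltransferase forms divided by tissue. Cpt1a had 35.1 to 144.1 jointly scaled TPM in control livers (median 71.8) and 1.85 to 8.82 in muscles (median 3.99), an 18.0-fold difference of medians. Cpt1b was at 0 to 9.93 (median 1.26) in livers and 50.5 to 232 (median 122.95) in muscles, 97.6-fold the other way. Crat, which buffers acetyl groups, was 12.4-fold higher in muscle, and Abcd2 11.4-fold. Cpt2, which both forms feed, differed less, 1.55-fold higher in liver with medians of 39.5 and 25.5.

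Of the 9 peroxisomal genes 8 were higher in liver. Acaa1b had a median of 272 in liver and 0.77 in muscle, 353-fold, though reads shared with Acaa1a leave this ratio uncertain. Acaa1a was 4.53-fold higher in liver (53.9 against 11.9). Ehhadh was 32.7-fold higher in liver, Decr2 26.3-fold, Crot 7.78-fold, Abcd3 7.14-fold and Hsd17b4 5.57-fold. Ppara was 13.4-fold higher, with 14.7 to 110 in livers (median 56.5) and 1.25 to 17.6 in muscles (median 4.20), so its ranges met.

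Several genes of the mitochondrial spiral lay closer together. Hadha had the same median in both tissues, 155, and its difference of -0.01 ± 0.05 did not pass (adjusted p = 0.905), while its partner Hadhb was 2.14-fold higher in muscle (224 against 105.02). Acadl and Acadm were higher in muscle, 1.61-fold and 1.34-fold, and Acads (2.15-fold), Echs1 (2.41-fold), Acsl1 (3.14-fold) and Acaa2 (5.51-fold) in liver. Acaa2 had the highest median of the set in liver (573), and in muscle Acadm (227) and Hadhb (224) were highest and did not differ beyond their spread. Slc22a5 was level (4.74 and 4.78; adjusted p = 0.455). The direction of small differences depended on the scaling. With libraries scaled to their coding sum 21 genes of the set were higher in liver and 12 in muscle. Over all genes these counts were 4186 and 7846, against 5833 and 5720 with the joint scaling used above. The sign turned for Slc25a20, Acadvl, Eci1, Ech1 and Decr1. Hadha (-0.45, limma adjusted p = 1.01e-14) and Slc22a5 (-0.43, adjusted p = 1.04e-08) passed as higher in muscle with the coding-sum scaling. They also did on the values as deposited (-1.05 and -0.80), so their equal levels held for the joint scaling only.

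In adipose tissue 6 of the 35 genes could be read, in a table of 2728 genes of which 2223 were tested and 45% passed (23.1% higher, 22% lower). Of the 6 genes 1, Acsl1, passed and was higher. Control samples had 216 to 1358 scaled TPM (median 648) and high-fat samples 344 to 2024 (median 886). In 50 of 75 high-fat mice it was above the control median, and the rise was 0.31 ± 0.09 (adjusted p = 0.0027), beside 0.31 in liver and 0.31 in muscle. No difference between adipose tissue and the other tissues was tested. Acsl1 feeds both oxidation and triglyceride synthesis.

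Acadvl in adipose tissue ran from 85.1 to 474 scaled TPM (median 163) in control and from 86.2 to 363 (median 153) in high-fat mice, a difference of -0.11 ± 0.07 (adjusted p = 0.196). Acaa1b ran from 14.6 to 145.02 (median 73.2) and from 22.8 to 332 (median 73.1), 0.14 ± 0.11 (adjusted p = 0.304), and was thus well above its muscle level in tables scaled apart. Etfb ran from 102.3 to 370.5 (median 216) and from 102.3 to 385 (median 219.9), 0.05 ± 0.07 (adjusted p = 0.541). Crot and Slc22a5 were the low genes of the group. Crot ran from 24.2 to 158 (median 34.96) and from 24.6 to 138.04 (median 32.1), -0.05 ± 0.08 (adjusted p = 0.598), and Slc22a5 from 16.99 to 114.4 (median 23.6) and from 15.6 to 33.6 (median 23.9), -0.06 ± 0.05 (adjusted p = 0.387). The ranges of the diets overlapped for all 6 genes.

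Beside these, 4 of 4 tested adipocyte markers fell in high-fat adipose tissue (median -0.60; Retn -1.27 ± 0.16, Slc2a4 -0.73 ± 0.10) and 3 of 4 macrophage markers rose (median 0.84; Cd68 1.57 ± 0.17, Adgre1 1.18 ± 0.15), and the part of this in the values above was not tested. Oxidative phosphorylation subunits fell in 8 of 8 cases (median -0.19; Ndufa1 -0.26 ± 0.05) and citric acid cycle genes in 6 of 7 (median -0.17; Ogdh -0.21 ± 0.05). Among targets of the Ppara receptor 3 of 5 rose (Plin5 0.74 ± 0.13, Pdk4 0.72 ± 0.15, Angptl4 0.46 ± 0.10) and G0s2 fell (-0.43 ± 0.09). Regulators fell in 5 of 8 cases (Pparg -0.48 ± 0.08, Lpin1 -0.33 ± 0.09), biogenesis factors in 2 of 8 (Pex3 -0.24 ± 0.05), Acsf3 of activation (-0.33 ± 0.06) and Pxmp4 of 3 other peroxisomal genes (-0.29 ± 0.06), while Echdc1 and 2 carnitine genes did not pass. Il7r rose among 3 lymphocyte markers (1.63 ± 0.18), Ptprb fell among 3 endothelial markers (-0.18 ± 0.07), and 2 fast fibre genes and Dio2 of the brown list did not pass.

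Across mice of the same diet, the genes of the set moved together in both tissues. Over the 595 pairs of genes the median Pearson correlation of log2 values was 0.37 in control and 0.35 in high-fat livers, and 0.39 and 0.47 in muscles (74 mice each), where the mean over all pairs of tested genes was 0.03 and 0.07 in liver and 0.01 and 0.01 in muscle. These are descriptions: pairs share libraries, scaling and genes. Correlations over 0.5 were found for 25.04% and 31.4% of pairs in liver and 37.6% and 47.1% in muscle. Without the low-scale libraries the shares were 26.2% and 35.97% in liver and 37.1% and 50.3% in muscle. No such share was computed over all pairs of tested genes. With all libraries the mean over the 595 pairs was 0.36 and 0.37 in liver and 0.36 and 0.41 in muscle. Negative correlations were found for 19 and 34 of these pairs in liver and for 88 and 89 in muscle.

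**Figure D4:**
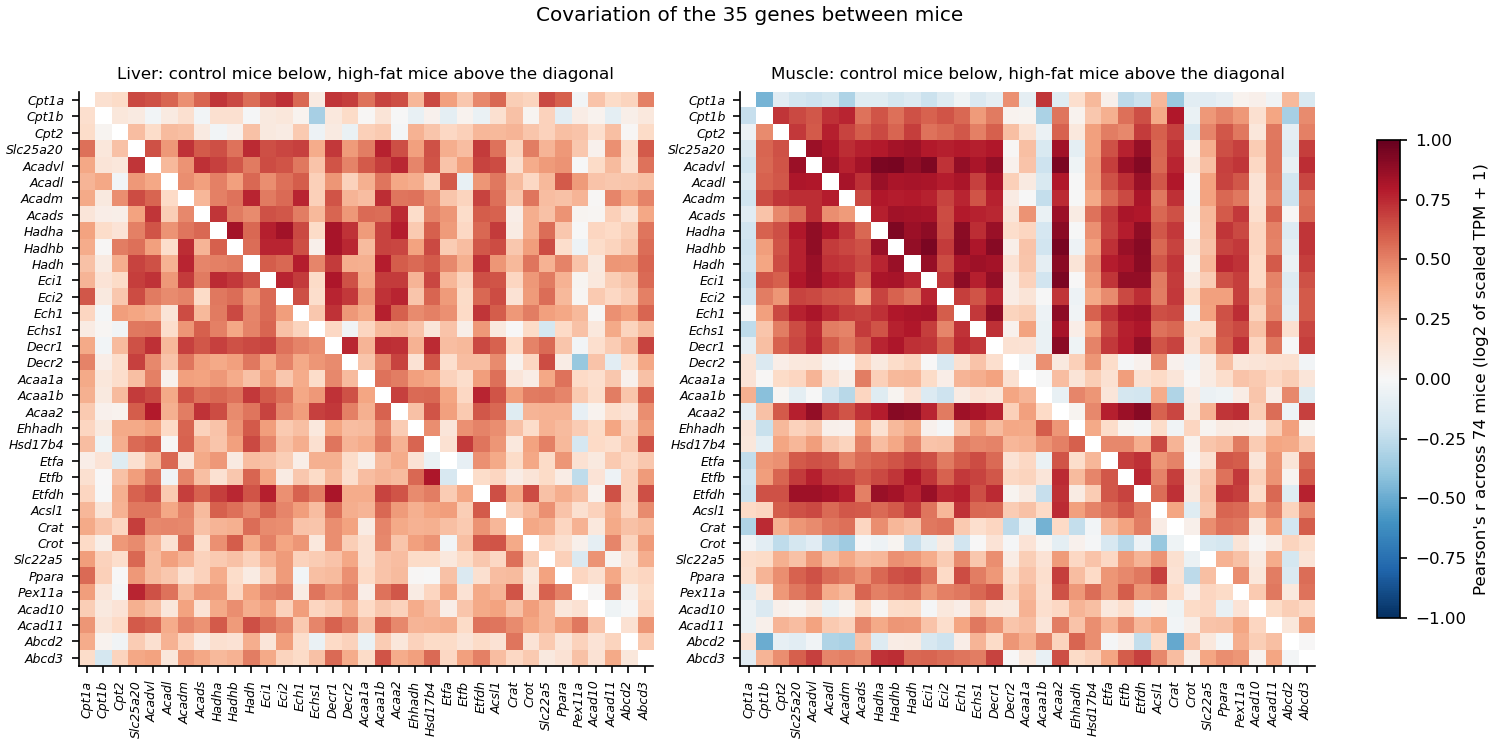
Pearson correlation across mice for every pair of the 35 genes in liver and in muscle, with control mice below and high-fat mice above the diagonal and colour from -1 to 1. Muscle shows a block of mitochondrial genes with correlations up to 0.95, with Cpt1a, Crot and Abcd2 outside it; liver is more even.

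In muscle the spiral formed a tight block. Hadhb and Acaa2 correlated at 0.91 in control and 0.95 in high-fat mice, Acadvl and Hadha at 0.89 and 0.94, and the head-to-head subunits Hadha and Hadhb at 0.86 and 0.93. In liver Hadha and Hadhb correlated at 0.60 and 0.83. The highest-ranked liver pairs were Acadm with Hadh (0.76 and 0.76), Acadvl with Acaa2 (0.79 and 0.75) and Hadha with Eci1 (0.75 and 0.78). The subunits of the electron transfer flavoprotein differed by tissue: Etfa and Etfb correlated at 0.62 and 0.69 in muscle and at -0.16 and -0.08 in liver. Cpt1a stood outside the muscle block, with a median correlation to the other genes of -0.12 in control and -0.11 in high-fat mice, and it ran against Cpt1b (-0.23 and -0.46). Crot (-0.05 and 0.03) and Abcd2 (0.08 and -0.02) were outside it as well.

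The genes most like a member were ranked by the lower of the 2 diets' correlations over 74 mice each, and genes among the 5 highest are named. In liver Hadha was most like Eci1, Decr1, Acaa2 and Acadvl, with Eci1 at 0.75 and 0.78. Cpt1a in liver was most like Slc27a2 (0.72 and 0.76), Eci2, Ppara, Slc25a20 and Lrp4, and Ppara was most like Hykk (0.60 and 0.74), Cpt1a, Kansl3 and Ammecr1l. Cpt2, the gene of smallest p for diet in liver, had lower correlations there: Cyp4a14 (0.39 and 0.42), Aldh3a2, Net1, Tmem56 and Entpd5 were nearest. Etfdh was most like Plin2 (0.72 and 0.71), Acaa1b, Acadm and Decr1, and Ehhadh most like Cyp4a14 (0.63 and 0.58), Hadh, Acadm, Cyp4a10 and Acaa1b. Acaa1a was nearest to Acadvl (0.51 and 0.61), Chchd10, Creb3l3 and Hadha, and Acad11 to Etfdh (0.54 and 0.64), Abcb4, Acaa1b and Acadm. The low liver Cpt1b followed Pkm (0.51 and 0.48), Pfkm, Eno3, Ankrd23 and Phka1, of which Pkm, Pfkm and Eno3 encode glycolytic enzymes abundant in muscle. The myofibre marker sum reached 2862 in control and 5020 scaled TPM in high-fat livers, with medians of 2.52 and 2.52, and its part in the Cpt1b values was not tested.

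In muscle Hadha was most like Acadvl (0.89 and 0.94), Hadhb, Etfdh, Eci1 and Acadl, Etfdh most like Eci1 (0.86 and 0.88), Hadha, Slc25a20, Acadvl and Hadhb, and Cpt2 most like Acadm (0.72 and 0.68), Hadh, Hadha, Slc25a20 and Etfdh. Cpt1b kept different company, the transaminase Got2 (0.80 and 0.80) and the citric acid cycle genes Cs, Ogdh and Mdh2. Cpt1a was most like Scpep1 (0.65 and 0.68), Ppib, Hmox1, Itgb2 and Ucp2, none of them a gene of the set. Ppara was nearest to Acaa2 (0.69 and 0.72), Pank1, Hadh, Hadhb and Acadvl, Acaa1a to Acads (0.51 and 0.45), Fahd2a, Atad3a, Rasip1 and Acsf3, and Acad11 to Echs1 (0.53 and 0.61), Acaa2, Chpt1, Acads and Slc27a1. Ehhadh in muscle followed Rbp4 (0.59 and 0.52), Aldh1l1, Acaa1b, Gsta3 and H2-Q10. The hepatocyte marker sum reached 1798 in control and 5663 in high-fat muscles (medians 49.6 and 28.1), and its part in the Ehhadh values was not tested. Without the low-scale libraries all 5 nearest genes stayed for Hadha and Etfdh in muscle, and 1 of 5 for Cpt2 in liver.

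Levels in liver and muscle of the same animal were compared within each diet, with 100000 permutations of the mice and adjustment over 10898 genes. On the control diet 2 of the 35 genes correlated between tissues, where 5.85% of all genes did (5.71% positively), and on the high-fat diet 5, where 5.56% did (5.43% positively). All 7 of these correlations were positive. Etfa had r = 0.46 (rho = 0.45, adjusted permutation p = 0.00162) in control and r = 0.44 (rho = 0.41, adjusted permutation p = 0.00226) in high-fat mice, and r = 0.44 and 0.34 without the 2 farthest mice. Without the low-scale libraries its high-fat value was 0.24 and did not pass (adjusted permutation p = 0.319). Acad10 had r = 0.37 (rho = 0.40, adjusted permutation p = 0.0232) and r = 0.39 (rho = 0.39, adjusted permutation p = 0.0115), and 0.38 in each diet without the 2 farthest mice.

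The other 3 genes passed on the high-fat diet. Acad11 had r = 0.38 (rho = 0.39, adjusted permutation p = 0.019; 0.33 without the 2 farthest mice), and on the control diet r = 0.32 (adjusted permutation p = 0.0886). Ehhadh had r = 0.36 (rho = 0.28, adjusted permutation p = 0.0344; 0.28 without the 2 farthest mice), and Ech1 r = 0.34 (rho = 0.35, adjusted permutation p = 0.0455; 0.35 without them). With the low-scale libraries left out the Ech1 value was 0.27 (adjusted permutation p = 0.231) and that of Ehhadh 0.36 (adjusted permutation p = 0.0651), neither of which passed, and Decr2 passed at 0.49 (adjusted permutation p = 0.00184; 0.14 with these libraries). Ehhadh did not pass by Spearman's rho (adjusted permutation p = 0.131), nor Ech1 without the unmatched mice (0.31, adjusted permutation p = 0.12), where Acaa1b passed (0.36, adjusted permutation p = 0.044). Cpt2, which rose with diet in both tissues, gave r = 0.04 (rho = 0.01) and 0.15 (rho = 0.15) and did not pass (adjusted permutation p = 0.936 and 0.648).

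**Figure D5:**
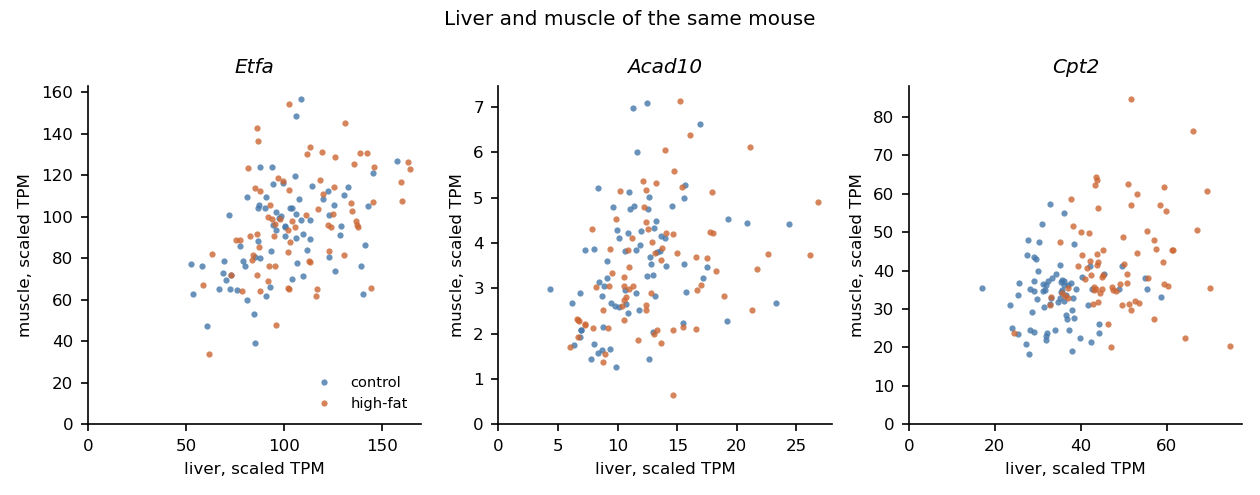
Level in muscle against level in liver of the same mouse (scaled TPM) for Etfa, Acad10 and Cpt2, with colours for the diets. Etfa and Acad10 rise together across mice (r = 0.46 and 0.37 on the control diet), and Cpt2 shows no such slope (r = 0.04). The r values were taken on log2(scaled TPM + 1).

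The spread between mice was compared between diets by the absolute deviation from the diet's median on the log2 scale. By limma 0 of 33 tested genes of the set passed in liver, 0 of 31 in muscle and 0 of 6 in adipose tissue, where 0.0273%, 0.0352% and 2.44% of all genes did (2.12% with the larger spread on the high-fat diet in adipose tissue). At an unadjusted p under 0.05 there were 0, 8 and 0, where 3.13%, 5.73% and 12.6% of all genes were. In muscle 24 of the 31 genes had the larger spread on the high-fat diet, and the 5 of smallest p were Decr1 (0.13 ± 0.04, adjusted p = 0.634), Etfb, Hadha (0.12 ± 0.04, adjusted p = 0.672), Ech1 and Acadvl (0.10 ± 0.04, adjusted p = 0.78). In liver 19 of the 33 had the larger spread on the high-fat diet, and Etfb, Hsd17b4, Crot, Abcd3 and Hadha had the smallest p (adjusted p = 0.999 each). In adipose tissue it was 5 of 6, with Acaa1b first (0.14, adjusted p = 0.41). These counts by direction are descriptions. No share of all genes is given beside them, and genes that move together across mice are not separate observations.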

How the data were processed

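RNA of liver, muscle and abdominal adipose tissue was measured per mouse. The submitters' processing notes name Bowtie 1.2.2, Trim Galore 0.4.4 and FastQC. How abundances were estimated, and on which genome build, is not given in the sources used here. Although its tables are named as counts, the deposited data are TPM: liver and muscle columns sum to the same total, so no count test was used. The adipose table was read in part. Gene IDs were matched to GENCODE M21 symbols (99.1% in liver and muscle, 99.9% in adipose tissue).

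Libraries were scaled within each tissue by a trimmed mean of log ratios (trims of 0.3 on ratio and 0.05 on level) over protein-coding genes, with Lars2 and the mitochondrially encoded genes kept out. Genes were tested where the libraries with at least 1 scaled TPM, counted over both diets together, numbered at least 0.7 of the smaller diet group. All 35 genes passed this in liver and muscle, and all 6 in adipose tissue. Cpt1b and Abcd2 passed in liver with lower quartiles under 1 in both diets (0.54 and 0.43, and 0.56 and 0.28). Differences of log2(scaled TPM + 1) were tested with limma 3.58.1 (trend, robust; R 4.3.3), two-sided, with Benjamini-Hochberg adjustment over all genes tested. Same-mouse correlations used 100000 permutations, and spread was tested for genes with a mean of at least 5. On simulated data, limma recovered 91 of 100 genes changed by 0.5 (log2) in liver, 91 in muscle and 97 in adipose tissue. There were 7, 6 and 7 false calls. The changed genes had a mean of at least 5, and the noise was drawn independently for each gene. Smaller changes, such as the medians of the set (0.24 in liver, 0.19 in muscle), were not simulated, so their recovery is not known.

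By their labels, same-numbered liver and muscle libraries come from the same animal, so the mouse number pairs them. Of 149 livers 140 matched their own muscle best over the 150 genes used. These genes were picked as those of highest correlation between the same-numbered livers and muscles, so a high share of matches was partly built in. Over 10251 genes, with no such choice, the median same-mouse correlation of deviations was 0.11, against -0.00 for other mice.

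The members, lists and tests were chosen with earlier results of these data known. Values per mouse are given for the 6 genes of smallest p in liver, in muscle and in the interaction, for all genes tested in adipose tissue, and always for Cpt1a, Cpt1b, Cpt2, Acaa1a, Acaa1b, Hadha, Hadhb, Ehhadh and Ppara. Other lists are given by counts and at most 4 genes of smallest p. Genes named for spread or correlation between tissues are the 5 of smallest p, and the gene pairs were picked for their rank or role after their values were seen. A few genes that these rules would name are not reported here. No protein sequences were used here. Alternatives changed the pseudocount, minimum level, scaling, limma settings, mouse block and the libraries kept.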

Additional observations from a re-analysis of the deposited data

Results flagged for a closer look

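For 2 genes the high-fat effect in liver differed from that in muscle by the test of tissue and diet together. Acaa1a, the peroxisomal thiolase, rose by 0.33 in liver and differed by -0.00 in muscle, and the difference between these effects was 0.33 ± 0.09 (limma adjusted p = 0.0104). Of the high-fat livers 63 of 74 were above the control median, and of the high-fat muscles 38 of 74. It passed in 5 of 7 alternatives and did not with mouse 80 kept (0.27, adjusted p = 0.127) or on the values as deposited (0.43, adjusted p = 0.939). Reads shared with Acaa1b leave its own level uncertain. Acad11, an acyl-CoA dehydrogenase, rose by 0.26 in liver and differed by -0.02 in muscle, a difference of 0.28 ± 0.08 (adjusted p = 0.036). It passed in 2 of 7 alternatives, with values from 0.21 to 0.37.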

How the results depend on the processing

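On the values as deposited, 11 genes were higher on the high-fat diet and 48 lower in liver, 5 higher and 10 lower in muscle, and 300 higher and 17 lower in adipose tissue. The difference between liver and muscle then had 1 gene higher and 6 lower, and of the 35 genes 0 were higher or lower in liver, 0 in muscle and 0 in the difference. In muscle the signs of Hsd17b4 (-0.025), Slc22a5 (-0.014) and Abcd3 (-0.0086) turned. Between tissues 2573 genes were then higher in liver and 8986 in muscle, of the 35 genes 13 and 15, with Cpt2 (-0.32), Slc25a20 (-0.69), Acadvl (-0.65), Hadh (-0.48), Eci1 (-0.83), Eci2 (-0.27), Ech1 (-0.82), Decr1 (-0.75), Etfa (-0.27), Etfb (-0.14) and Etfdh (-0.21) turned. Scaled to the coding sum, 299 genes were higher and 1121 lower in liver (577 and 633 otherwise), and 274 higher and 32 lower in muscle, with 23 of the 35 higher there. Between tissues 4186 genes were then higher in liver and 7846 in muscle, of the 35 genes 21 and 12. The signs of Slc25a20 (-0.13), Acadvl (-0.039), Eci1 (-0.25), Ech1 (-0.20) and Decr1 (-0.19) turned. The fall of Abcd2 in liver was lost (0 of the 35 genes lower) with no filter, a pseudocount of 0.1 or mouse 80 kept, and with a minimum level of 5 it was left untested (0 lower). In muscle 78 genes were higher with mouse 80 kept, and 80 higher and 41 lower with no filter. With mouse 80 kept 0 of the 35 passed in the difference. Without the low-scale libraries 982 genes were higher in liver and 48 lower in muscle, and 302 were higher and 302 lower in the difference (5 of the 35 higher in liver). The spread then had 1 gene lower in liver, and 19 higher and 3 lower in adipose tissue (40 and 6 with them). In the high-fat same-mouse correlation 938 genes were positive (592 with them), 3 of them among the 35. With both tissues scaled together 1 of the 35 was higher in the difference, and without the unmatched mice 1, Acadl, was lower. With the mouse as a block, which pairs the tissues, 192 genes were higher and 228 lower in the difference, 2 of the 35 higher and 1 lower (Acadl). Between tissues the block gave 5874 genes higher and 5752 lower, with 27 and 6 of the 35 as without it. The cause of these changes was not tested. TPM hold no depth, so no limit of detection could be set.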
